A study of Mus musculus with 9 samples.

Results

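The 44 collagen chain genes of the mouse ovary table are described here across 3 comparisons of tissue from tumour-bearing mice. They were chosen by symbol, as every gene named Col with a type number, the letter a and a chain number, and make up 44 of the 19517 genes in the authors' deposited table. Each of the 44 had a value in each comparison. By the supramolecular form of the protein, 11 are fibrillar, 6 basement membrane, 3 network-forming and 9 FACIT chains. The remaining 15 are 6 chains of the beaded filament collagen VI, 1 of the anchoring fibril collagen VII, 2 multiplexins, 4 transmembrane collagens and 2 others.

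RNA-seq libraries were made from ovarian tissue of 9 female BALB/c nude mouse samples, an athymic strain, which all carried xenografts of the human breast cancer line MDA-MB-231. The CAU group (3 samples) received caulerpin, a bis-indole alkaloid made by green seaweeds, the CTX group (3 samples) had cyclophosphamide, an alkylating chemotherapy drug, and the UT group (3 samples) had no treatment. In the CAU labels caulerpin is the sole agent, and a combination with cyclophosphamide is neither stated nor denied. No library came from mice without a tumour, and the sources used here give no doses, times or ages.

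Collagens are extracellular matrix proteins, most of them secreted and some anchored in the cell membrane, in which 3 chains wind into a glycine-rich helix, and some types are made of different chains encoded by separate genes. Fibrillar collagens carry the tensile load of connective tissue, and FACIT collagens sit on the surface of those fibrils. Collagen IV forms the sheet of basement membranes, which in the ovary surround follicles and vessels. Stroma, theca, vessel walls and the ovarian surface are among the tissues that deposit collagen there.

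The values are the authors' own log2 fold changes, p-values and adjusted p from DESeq2, with no value per library, so neither levels of a chain nor the overlap of single ovaries can be given. Beside each log2 fold change stand the standard error (SE) and 95% interval implied by its p-value, and a chain is called changed at an adjusted p under 0.05 over all genes of its comparison. Depth per library is unknown here. The table does not name the numerator, and a fold change was read as the treated or later-named group over the other. In that reading Cdkn1a, the p21 kinase inhibitor induced by DNA damage, was at 1.99 (SE 0.32) for CTX over UT in the authors' deposited table, and if the columns ran the other way each direction below would be reversed. Nothing in the labels says that replicate samples came from separate mice, so the p-values reflect only how these samples vary, which may be technical variation. In whole tissue, fewer cells of a type and less RNA per cell cannot be told apart.

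Col9a2 and Col15a1 were the chains that passed the threshold, and the other 42 chains passed in no comparison. The upstream sequences of both genes are shown because these genes carry the result, with that of Col18a1, the second multiplexin, whose values were among the most precise and did not pass. The letters are the 250 bases before a RefSeq transcript start (build GRCm38.p6), and capitals mark matches to 4 short motifs searched on both strands. Strands of matches are given relative to the gene, so a match on the opposite strand is printed as its reverse complement. The motifs were the GC box GGGCGG, the CCAAT box, the TATA box TATAAA and AACAAT, a core bound by SOX factors.
Col9a2, chr4:121039316-121039565, plus strand: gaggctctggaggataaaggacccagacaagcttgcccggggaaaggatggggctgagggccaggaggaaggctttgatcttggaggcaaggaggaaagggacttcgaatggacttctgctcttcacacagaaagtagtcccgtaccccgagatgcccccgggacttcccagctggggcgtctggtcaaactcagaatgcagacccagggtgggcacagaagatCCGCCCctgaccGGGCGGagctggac
Col15a1, chr4:47207762-47208011, plus strand: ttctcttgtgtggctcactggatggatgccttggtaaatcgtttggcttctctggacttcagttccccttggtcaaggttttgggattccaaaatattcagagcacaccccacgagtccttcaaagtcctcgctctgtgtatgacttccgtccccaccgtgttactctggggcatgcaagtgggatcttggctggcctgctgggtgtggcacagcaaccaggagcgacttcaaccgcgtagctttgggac
Col18a1, chr10:77166531-77166780, minus strand: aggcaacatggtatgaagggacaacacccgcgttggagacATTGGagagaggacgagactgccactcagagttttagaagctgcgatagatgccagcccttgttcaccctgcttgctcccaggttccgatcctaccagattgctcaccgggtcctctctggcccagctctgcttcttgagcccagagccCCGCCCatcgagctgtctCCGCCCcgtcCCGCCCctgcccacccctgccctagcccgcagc

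Col9a2 had a GC box on the strand opposite to the gene that began 26 bases before the start and another on the strand of the gene that began 14 bases before it. The Col15a1 window, which lies inside the annotated gene span at a later transcript start, held none of the 4 motifs. Col18a1 had 3 GC boxes and a CCAAT box on the strand opposite to the gene in the window shown, and its second RefSeq window held no match. A GC box was in 22 of the 38 windows of 35 collagen genes with an entry, a share of 57.9%, and in 32.7% of 32851 windows of all genes. The CCAAT box was in 34.2% of collagen windows and 33.8% of all windows, and the TATA box in 13.2% and 12.4%. The SOX core was in 2.63% of collagen windows, which is 1 of 38, and in 9.42% of all windows. The collagen windows had a median GC content of 59.0%, against 52.4% in all windows. A GC-rich window holds a GC box more often by its letters alone, and the part of GC content in these shares was not tested. No matches of these motifs overlapped in the 3 sequences shown.

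Col9a2 encodes a chain of collagen IX, a FACIT collagen known best from the surface of cartilage fibrils. It was about as much lower in CTX than in UT as it was higher in CAU than in CTX. The gene lies on chromosome 4 at 121039566 to 121055325 (GRCm38.p6, plus strand), and no other annotated gene overlaps its span. In the authors' deposited table Col9a2 fell by 0.95 on the log2 scale in CTX against UT, 1.93-fold lower (SE 0.14, 95% interval -1.22 to -0.69, DESeq2 adjusted p = 7.81e-09). In CAU against CTX the authors' deposited table has it 2.06-fold higher (1.04 on the log2 scale, SE 0.12, 95% interval 0.81 to 1.27, DESeq2 adjusted p = 1.51e-14). That was the smallest p-value of 19245 genes in CAU against CTX, and the Col9a2 p-value ranked 7 of 19260 in CTX against UT. For CAU over UT the authors' deposited table gives 0.10 (SE 0.13, 95% interval -0.15 to 0.34), which did not pass. Both passing comparisons use the same 3 CTX libraries, so they are not independent of each other.

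**Figure D1:**
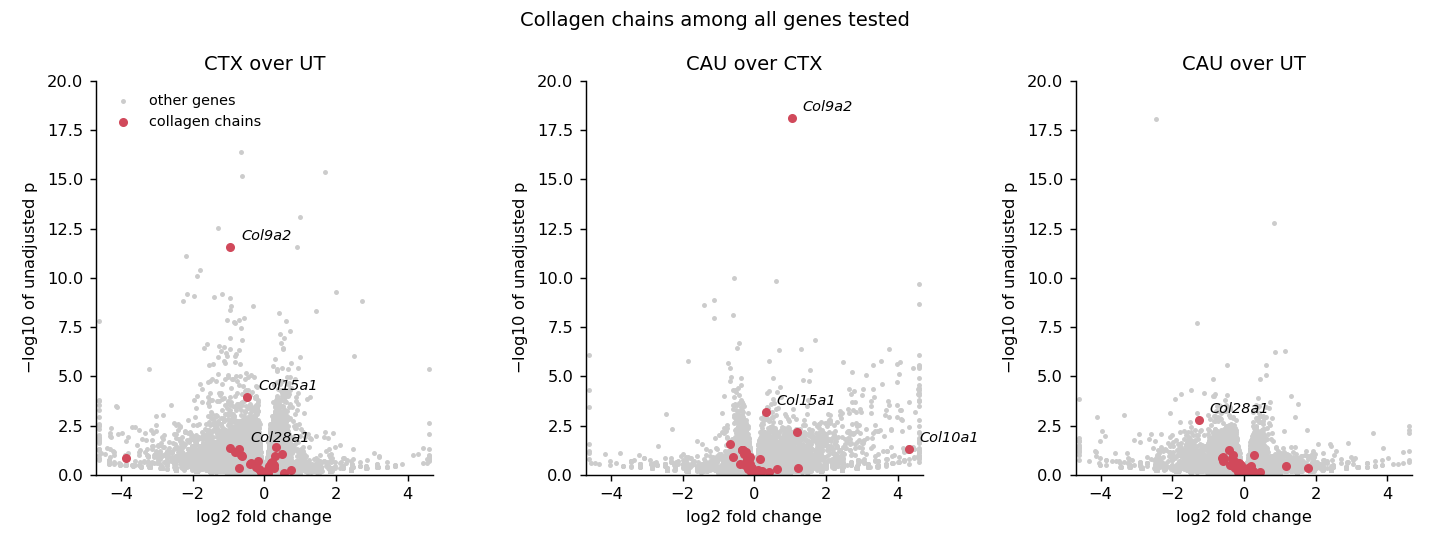
Each point is a gene, placed by its log2 fold change (horizontal axis, more extreme values of other genes drawn at the edge) and the -log10 of its unadjusted p (vertical axis), with collagen chains in red. Col9a2 stands at the top of CAU over CTX and near the top of CTX over UT, while it lies among the other genes in CAU over UT.

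The partner chains of collagen IX gave imprecise values. Col9a3, the third chain of the molecule, was at 0.28 (SE 0.38, 95% interval -0.46 to 1.03) for CTX over UT in the authors' deposited table. For CAU over CTX, Col9a3 was at -0.10 (SE 0.32, 95% interval -0.73 to 0.53) in the authors' deposited table. Both intervals lay apart from those of Col9a2, but the difference between the chains was not tested, since it needs values per library. Part of Col9a3 overlaps Tcfl5 on the opposite strand, and the sources used here do not give the strand setting, so their reads may not have been told apart. Col9a1 was at 0.55 (SE 2.57) for CTX over UT, 1.22 (SE 1.59) for CAU over CTX and 1.78 (SE 2.29) for CAU over UT in the authors' deposited table, with SEs too large to place it on either side of 0.

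The measured genes beside Col9a2 on chromosome 4 did not pass. Within 150 kb on either side, 6 other genes had values. Smap2, which encodes an Arf GTPase-activating protein and lies 22.3 kb before Col9a2, was at 0.04 (SE 0.09) for CTX over UT and 0.02 (SE 0.09) for CAU over CTX in the authors' deposited table. Zmpste24, the prelamin A protease gene 3.91 kb beyond Col9a2, was at 0.01 (SE 0.07) for CTX over UT and 0.31 (SE 0.14, unadjusted p = 0.0246) for CAU over CTX in the authors' deposited table.

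**Figure D2:**
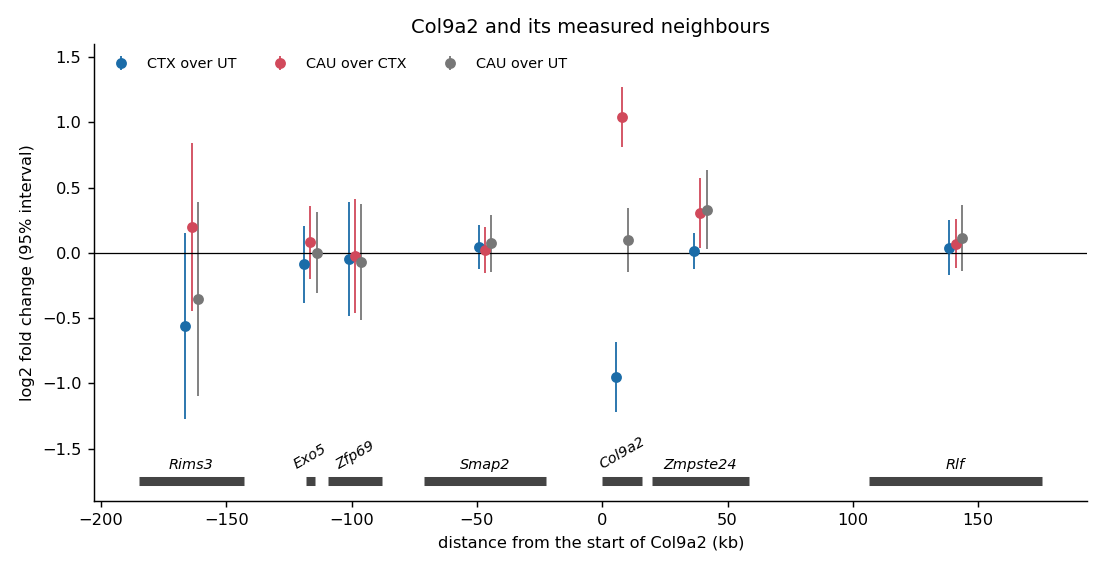
Log2 fold changes (vertical axis, bars are 95% intervals) of Col9a2 and the 6 measured genes within 150 kb, placed at the middle of each gene by distance from the start of Col9a2 in kb, with dark bars for gene spans. Col9a2 is at -0.95 in CTX over UT and 1.04 in CAU over CTX, and the intervals of the neighbours include 0 except that of Zmpste24 in CAU over CTX and in CAU over UT.

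Other genes of cartilage did not pass in any comparison. Of 8 cartilage markers, 6 were positive and 2 negative in CTX against UT (median 0.47) and again in CAU against CTX (median 0.18). Their median SE was 0.71 and 0.77, so 2-fold changes in most of them could not be seen. Sox9, the transcription factor of cartilage that is known to act on collagen IX genes there, was at -0.42 (SE 0.67) for CTX over UT and 0.40 (SE 0.47) for CAU over CTX in the authors' deposited table. Col2a1, the main fibrillar chain of cartilage, was at 0.75 (SE 1.28) and 0.42 (SE 1.08) for CTX over UT and CAU over CTX in the authors' deposited table.

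Col15a1 encodes the chain of collagen XV, a multiplexin of the basement membrane zone that bridges to the collagen fibrils beneath it. The gene is on chromosome 4 at 47207655 to 47313167 (GRCm38.p6, plus strand), and an antisense gene, Gm12426, overlaps it. In the authors' deposited table Col15a1 fell by 0.48 on the log2 scale in CTX against UT, 1.39-fold lower (SE 0.12, 95% interval -0.72 to -0.23, DESeq2 adjusted p = 0.0150). It no longer passed at an adjusted p under 0.01. For CAU over CTX the authors' deposited table gives 0.32 (SE 0.09, 95% interval 0.14 to 0.50, DESeq2 adjusted p = 0.102), which did not pass. Scaling z values to a spread of 1 raised the calls over all genes in CAU against CTX from 85 to 237. Col15a1 was then among them, with a recomputed adjusted p = 0.00783. For CAU over UT it was at -0.15 (SE 0.13, 95% interval -0.40 to 0.10) in the authors' deposited table. Of its neighbours with values, Tgfbr1, a TGF-beta receptor gene 40.1 kb beyond it, was at 0.05 (SE 0.14) for CTX over UT in the authors' deposited table. Galnt12, a glycosyltransferase gene 84.6 kb before it, was at -0.72 (SE 0.52) in the same comparison of the authors' deposited table. The authors' deposited table gives, for CAU over CTX, -0.02 (SE 0.15) for Tgfbr1 and 1.01 (SE 0.47, 95% interval 0.10 to 1.92, unadjusted p = 0.0295) for Galnt12, and neither passed. Galnt12 thus had the sign of Col15a1 in both of these comparisons, which share the CTX libraries, with a larger SE. For CAU over UT its sign differed from that of Col15a1, at 0.30 (SE 0.60) in the authors' deposited table.

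Col18a1, the multiplexin of vascular and epithelial basement membranes that is the source of endostatin, was measured with an SE of 0.07 to 0.10. It was at 0.01 (SE 0.08, 95% interval -0.15 to 0.17) for CTX over UT in the authors' deposited table. For CAU over CTX it was at -0.11 (SE 0.07, 95% interval -0.26 to 0.03), and for CAU over UT at -0.10 (SE 0.10, 95% interval -0.29 to 0.09), in the authors' deposited table. These intervals exclude a change of 1.5-fold in either direction in each comparison. Col18a1 overlaps Slc19a1 on the opposite strand.

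Over the whole family, 2 of 44 chains fell and none rose in CTX against UT, where 1.29% of all genes were called and 0.82% fell. Over all genes 91 rose and 158 fell there, and once fold changes were centred on their median the split was 156 and 134. In CAU against CTX, 1 of 44 rose and none fell, where 0.442% of all genes were called and 0.312% rose. In CAU against UT no chain was called by DESeq2, where 0.0518% of all genes were (0.0311% rose and 0.0207% fell). At an adjusted p under 0.10 the counts of chains were again 2, 1 and 0, where 2.15%, 0.608% and 0.057% of all genes passed. At an unadjusted p under 0.05 the counts were 5, 5 and 1 chains in CTX against UT, CAU against CTX and CAU against UT, where the shares of all genes were 10.2%, 5.36% and 3.46%. These counts of chains are small, and their distance from the shares of all genes was not tested. In CAU against CTX the 5 chains include Col10a1, whose SE was 2.19. The median log2 fold change of the 44 chains was 0.00 in CTX against UT, with 24 positive, -0.09 in CAU against CTX, with 16 positive, and -0.07 in CAU against UT, with 20 positive. Over all genes the medians were -0.03, 0.00 and -0.01, with 44.2%, 52.3% and 47.8% of genes positive and 55.8%, 47.7% and 52.2% negative.

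**Figure D3:**
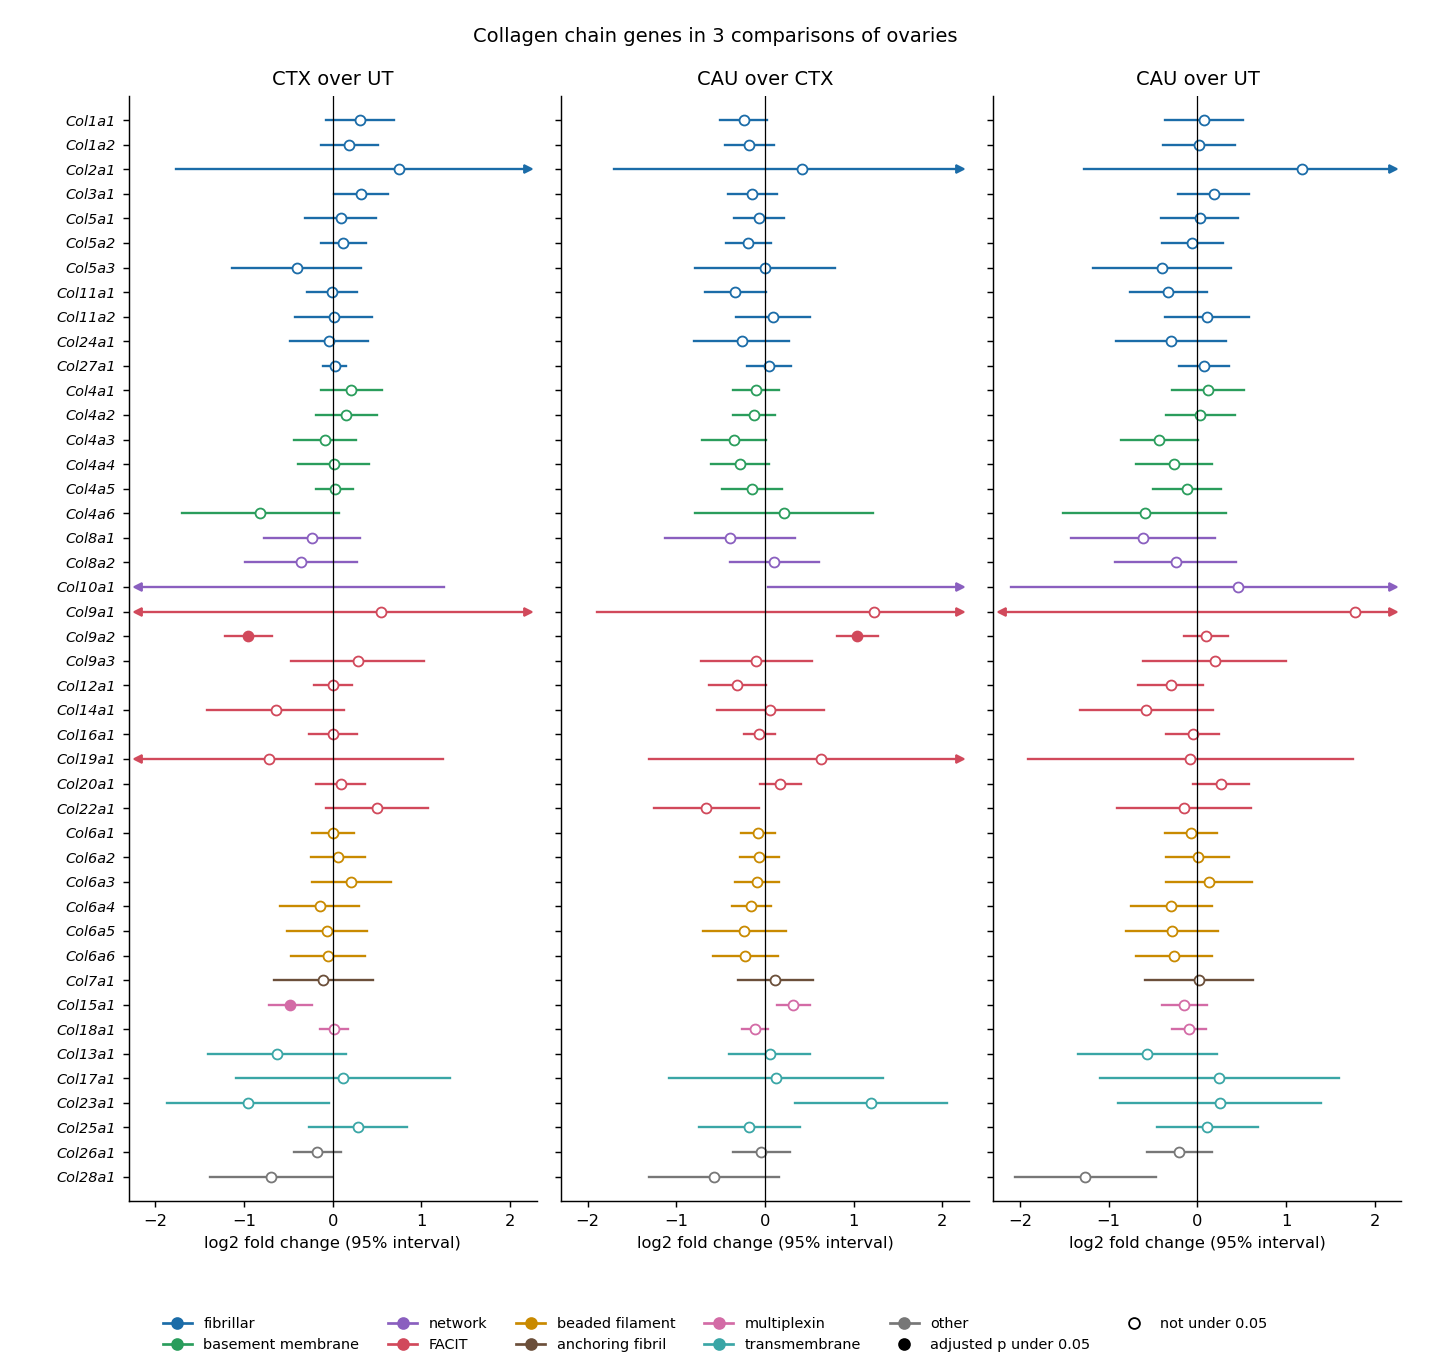
Log2 fold change (horizontal axis) of each of the 44 chains with its 95% interval, in colours by class, for CTX over UT, CAU over CTX and CAU over UT. Filled points passed an adjusted p under 0.05, arrowheads mark intervals that run past 2.2, and Col10a1 lies outside the axis at -3.87 and 4.32 in the first and second panels.

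Most chains were measured precisely enough to bound their change. The 95% interval lay within 2-fold in either direction for 30 of 44 chains in CTX against UT, 33 in CAU against CTX and 31 in CAU against UT. The corresponding shares of all genes were 61.8%, 65.6% and 62.0%. The SE ranged from 0.07 for Col27a1, a fibrillar chain, to 2.61 for Col10a1 in CTX against UT. The median SE of the chains was 0.22, 0.18 and 0.23 in CTX against UT, CAU against CTX and CAU against UT, against 0.21, 0.18 and 0.24 over all genes. For Col2a1, Col9a1 and Col10a1 the SE was above 1 in each comparison, and these genes of cartilage could not be judged.

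None of the 11 fibrillar chains passed in any comparison. Collagen I, the most abundant fibril protein of connective tissue, has the chain genes Col1a1 and Col1a2. In the authors' deposited table Col1a1 was at 0.31 (SE 0.20, 95% interval -0.08 to 0.69) for CTX over UT, -0.24 (SE 0.13, 95% interval -0.50 to 0.02) for CAU over CTX and 0.07 (SE 0.22, 95% interval -0.36 to 0.51) for CAU over UT. Col1a2 was at 0.19 (SE 0.16), -0.18 (SE 0.14) and 0.02 (SE 0.21) in the same order in the authors' deposited table. Both chains had the same sign in each comparison, and neither passed.

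Col3a1, the chain of the collagen III of stroma and vessel walls, was at 0.32 (SE 0.16, 95% interval 0.01 to 0.63) for CTX over UT in the authors' deposited table. Its unadjusted p was 0.0401 there and its DESeq2 adjusted p = 0.453, so it did not pass. It was at -0.14 (SE 0.14) for CAU over CTX and 0.19 (SE 0.20) for CAU over UT in the authors' deposited table. Col5a1 and Col5a2, chains of the collagen V that starts fibrils, were at 0.09 (SE 0.20) and 0.12 (SE 0.13) for CTX over UT in the authors' deposited table. Col11a1, a chain of the related collagen XI, was at -0.33 (SE 0.18, unadjusted p = 0.0577) for CAU over CTX in the authors' deposited table, and at -0.0037 (SE 0.14) for CTX over UT. Col27a1 was at 0.02 (SE 0.07, 95% interval -0.11 to 0.15) for CTX over UT, 0.04 (SE 0.13) for CAU over CTX and 0.08 (SE 0.15) for CAU over UT in the authors' deposited table. The medians of the class were 0.09 for CTX over UT, -0.14 for CAU over CTX and 0.03 for CAU over UT, with 8, 3 and 7 of 11 positive.

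None of the 6 collagen IV chains passed. Col4a1 and Col4a2 make the collagen IV found in most basement membranes, and their genes lie head to head on chromosome 8 with annotated starts 84 bases apart. Col4a1 was at 0.21 (SE 0.18, 95% interval -0.13 to 0.56) and Col4a2 at 0.15 (SE 0.18, 95% interval -0.19 to 0.50) for CTX over UT in the authors' deposited table. The authors' deposited table puts them at -0.10 (SE 0.13) and -0.13 (SE 0.12) for CAU over CTX, and at 0.12 (SE 0.21) and 0.03 (SE 0.20) for CAU over UT. The annotated spans of the genes overlap on opposite strands, and reads there may not have been told apart.

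The chains Col4a3, Col4a4 and Col4a5 form a second type of collagen IV network. Col4a3 and Col4a4 also lie head to head, on chromosome 1, with starts 113 bases apart. Their RefSeq spans overlap on opposite strands between these starts, and reads there may not have been told apart. Col4a3 and Col4a4 were at -0.09 (SE 0.18) and 0.01 (SE 0.20) for CTX over UT in the authors' deposited table. For CAU over CTX they were at -0.35 (SE 0.18, unadjusted p = 0.0564) and -0.28 (SE 0.17, unadjusted p = 0.0894) in the authors' deposited table, and neither passed. For CAU over UT the authors' deposited table gives -0.43 (SE 0.22, unadjusted p = 0.0548) for Col4a3 and -0.26 (SE 0.22) for Col4a4. On the X chromosome Col4a5 and Col4a6 are head to head with starts 1275 bases apart. Col4a5 was at 0.02 (SE 0.11) and Col4a6 at -0.82 (SE 0.45, unadjusted p = 0.0705) for CTX over UT in the authors' deposited table. For CAU over CTX the authors' deposited table gives -0.15 (SE 0.17) for Col4a5 and 0.21 (SE 0.51) for Col4a6, and for CAU over UT -0.12 (SE 0.20) for Col4a5 and -0.59 (SE 0.47) for Col4a6. The class had medians of 0.02, -0.14 and -0.19 for CTX over UT, CAU over CTX and CAU over UT.

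**Figure D4:**
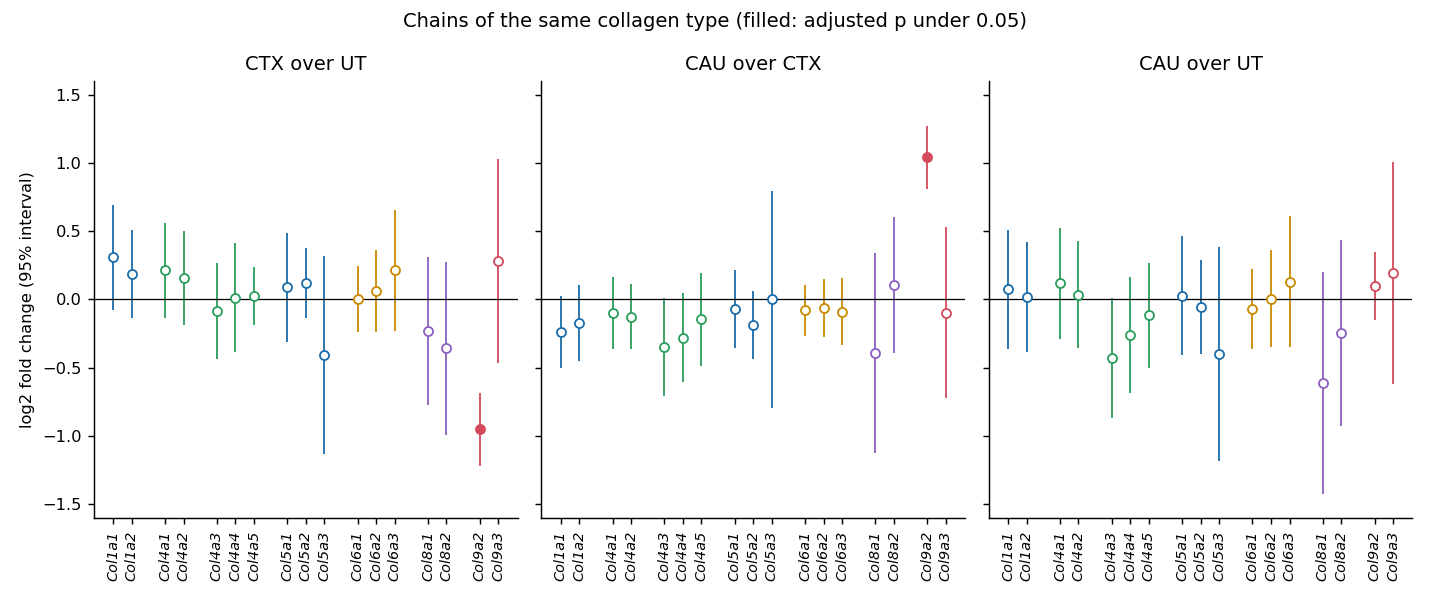
Log2 fold changes (vertical axis, bars are 95% intervals) of chains grouped by the collagen type they build, for types I, IV, V, VI, VIII and IX from left to right, with filled points for an adjusted p under 0.05. In CTX over UT, Col9a2 is at -0.95 beside Col9a3 at 0.28, while Col1a1 and Col1a2 are at 0.31 and 0.19; Col9a1, with an SE above 1, is not drawn.

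Collagen VI forms beaded filaments around cells, from the chains Col6a1, Col6a2 and one of the longer chains Col6a3 to Col6a6. Its 6 genes had log2 fold changes between -0.15 and 0.21 in CTX against UT, between -0.23 and -0.06 in CAU against CTX, and between -0.30 and 0.13 in CAU against UT, and none passed. In the authors' deposited table Col6a1 was at 0.00 (SE 0.12, 95% interval -0.24 to 0.24) for CTX over UT and -0.08 (SE 0.10, 95% interval -0.27 to 0.11) for CAU over CTX. Col6a2 was at 0.06 (SE 0.15) and -0.06 (SE 0.11), and Col6a3 at 0.21 (SE 0.23) and -0.09 (SE 0.13), for CTX over UT and CAU over CTX in the authors' deposited table. For CAU over UT the authors' deposited table gives -0.07 (SE 0.15) for Col6a1, 0.00 (SE 0.18) for Col6a2 and 0.13 (SE 0.25) for Col6a3. Each of the 6 intervals lay within 2-fold in each comparison. Col6a4, Col6a5 and Col6a6, which lie in a row on chromosome 9, were at -0.30, -0.29 and -0.26 for CAU over UT in the authors' deposited table, with SEs of 0.23, 0.26 and 0.22. For CTX over UT the authors' deposited table gives -0.15 (SE 0.23), -0.06 (SE 0.23) and -0.05 (SE 0.21) for Col6a4, Col6a5 and Col6a6, and for CAU over CTX -0.16 (SE 0.11), -0.23 (SE 0.24) and -0.22 (SE 0.19).

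Among the network-forming chains, Col8a1 and Col8a2 of the collagen VIII of vessel walls were at -0.23 (SE 0.28) and -0.36 (SE 0.32) for CTX over UT in the authors' deposited table. The authors' deposited table puts them at -0.62 (SE 0.41) and -0.25 (SE 0.35) for CAU over UT, and neither passed in any comparison. Col10a1, known from hypertrophic cartilage, had the largest log2 fold change of the family and the largest SE in CTX against UT and in CAU against CTX. It was at -3.87 (SE 2.61) for CTX over UT and 4.32 (SE 2.19, unadjusted p = 0.0485, DESeq2 adjusted p = 0.927) for CAU over CTX in the authors' deposited table. In CAU against UT, where Col10a1 was at 0.45 (SE 1.30), Col9a1 had the largest log2 fold change and SE, at 1.78 (SE 2.29), in the authors' deposited table. Col10a1 lies within Nt5dc1 on the opposite strand.

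Of the 9 FACIT chains, Col9a2 alone passed. Col12a1 and Col16a1, FACIT chains of soft connective tissue, were at 0.00 (SE 0.11) and 0.00 (SE 0.14) for CTX over UT in the authors' deposited table. Col12a1 was at -0.31 (SE 0.16, unadjusted p = 0.0582) for CAU over CTX in the authors' deposited table. Col14a1, which is known to bind decorin-coated fibrils, was at -0.64 (SE 0.40) for CTX over UT and -0.57 (SE 0.38) for CAU over UT in the authors' deposited table. Col22a1, a chain found at tissue junctions, was at 0.50 (SE 0.29) for CTX over UT and -0.66 (SE 0.30, unadjusted p = 0.0281) for CAU over CTX in the authors' deposited table. Col20a1 was at 0.09 (SE 0.14), 0.17 (SE 0.12) and 0.27 (SE 0.16) for CTX over UT, CAU over CTX and CAU over UT in the authors' deposited table, while Col19a1 had an SE of 0.94 to 1.00.

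The transmembrane collagens were less precise. Col23a1 was at -0.95 (SE 0.47, unadjusted p = 0.0415, DESeq2 adjusted p = 0.458) for CTX over UT in the authors' deposited table. For CAU over CTX it was at 1.20 (SE 0.44, unadjusted p = 0.00635, DESeq2 adjusted p = 0.414) and for CAU over UT at 0.25 (SE 0.58), in the authors' deposited table. Col23a1 thus had log2 fold changes close to those of Col9a2, with SEs more than 3 times as large, and did not pass. Col13a1, Col17a1 (the hemidesmosome collagen) and Col25a1 were at -0.63 (SE 0.40), 0.12 (SE 0.61) and 0.28 (SE 0.28) for CTX over UT in the authors' deposited table.

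Col28a1, which encodes a collagen of peripheral nerve, had the lowest value of the family in CAU against UT. It was at -1.26 (SE 0.40, 95% interval -2.05 to -0.47, unadjusted p = 0.00173, DESeq2 adjusted p = 0.464), as the authors' deposited table gives it, and did not pass. Scaling z values to a spread of 1 raised the calls over all genes in CAU against UT from 10 to 255. Col28a1 was then among them, with a recomputed adjusted p = 0.00285. For CTX over UT it was at -0.69 (SE 0.35, unadjusted p = 0.0483), and for CAU over CTX at -0.58 (SE 0.37), in the authors' deposited table. Col26a1 was at -0.17 (SE 0.13) and Col7a1, the anchoring fibril chain of epithelia, at -0.10 (SE 0.28) for CTX over UT in the authors' deposited table.

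Genes that modify, process, bind or sense collagen were described as 6 lists. Of 20 genes of chain modification and folding, none passed in CTX against UT or CAU against CTX, and 1 rose in CAU against UT, where 0.0311% of all genes rose. That gene was P4ha2, a subunit of the prolyl 4-hydroxylase that stabilises the helix, which the authors' deposited table puts at 1.16 (SE 0.23, DESeq2 adjusted p = 0.00236). For comparison, it was at 0.97 (SE 0.32, DESeq2 adjusted p = 0.115) for CTX over UT in the authors' deposited table. The medians of this list were 0.16, -0.01 and 0.18 for CTX over UT, CAU over CTX and CAU over UT, with 17, 8 and 15 of 20 positive, where 44.2%, 52.3% and 47.8% of all genes were. P4hb, the protein disulfide isomerase of the same enzyme, was at 0.08 (SE 0.07) for CTX over UT in the authors' deposited table.

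No member of the other 5 lists passed in any comparison. They were 14 genes of propeptide processing and crosslinking, 10 fibril-binding proteoglycans, 16 basement membrane partners, 10 collagen receptors and 15 measured genes of TGF-beta signalling. Their medians ranged from -0.10 to 0.06 for CTX over UT, from -0.15 to -0.02 for CAU over CTX and from -0.08 to 0.02 for CAU over UT. Single members spread further for CTX over UT, from -0.67 to 1.06 in the first list and from -1.72 to 1.46 in the proteoglycans. The other ranges, in the order given, were -1.26 to 0.35, -0.92 to 0.27 and -1.32 to 0.17. In CTX against UT, 0, 2, 1, 1 and 3 members in that order had an unadjusted DESeq2 p under 0.05, as did 10.2% of all genes. For CTX over UT, the most precise members in the authors' deposited table were Pxdn, the peroxidase that crosslinks collagen IV, at 0.15 (SE 0.10), and Lum, a fibril-binding proteoglycan, at 0.13 (SE 0.11). In the same comparison of the authors' deposited table, the laminin chain gene Lamb2 was at 0.04 (SE 0.07), the integrin gene Itgb1 at 0.06 (SE 0.08) and the TGF-beta signal transducer Smad3 at 0.08 (SE 0.06).

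**Figure D5:**
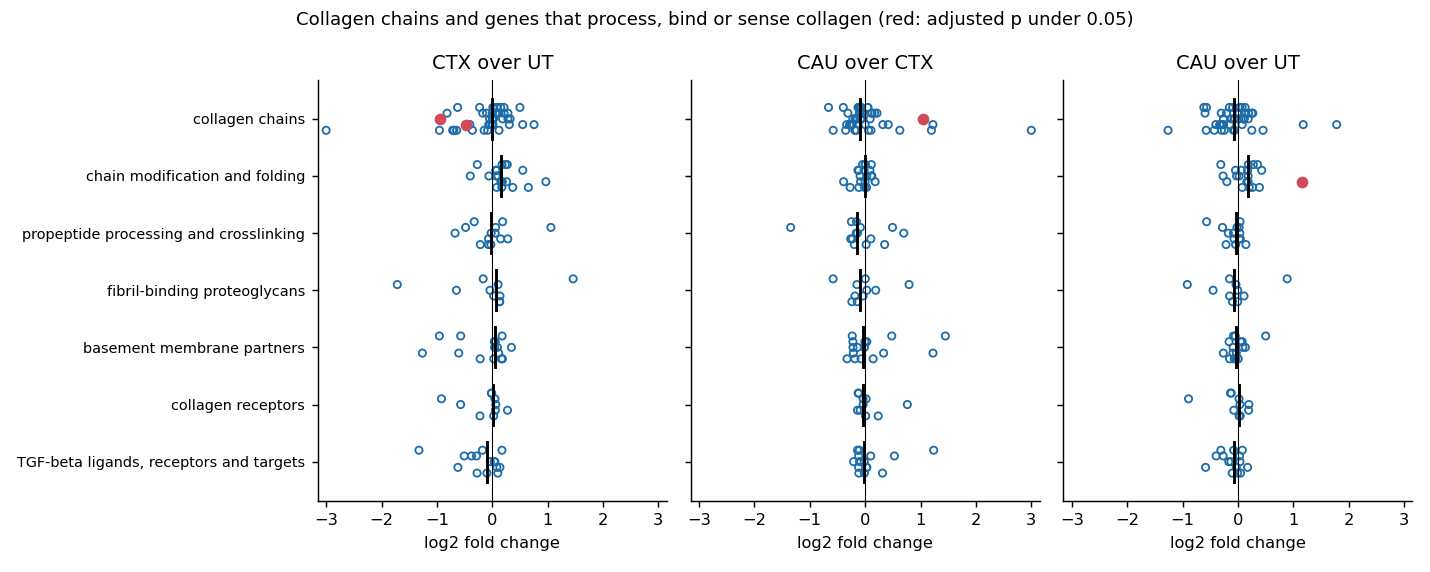
Each point is a gene, placed by log2 fold change (horizontal axis, Col10a1 drawn at the edge of 3) within the collagen chains or 1 of 6 lists, with a black line at each median and red points for an adjusted p under 0.05. The red points are Col9a2 and Col15a1 in CTX over UT, Col9a2 in CAU over CTX, and P4ha2 in CAU over UT.

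Col9a2 and Col15a1 passed in CTX against UT, and Col9a2 alone in CAU against CTX. Marker lists of several cell types had mostly a single sign in these comparisons. The markers of a list were measured in the same libraries, so their shared signs are not independent observations. The oviduct and adipocyte markers had median SEs of 1.26 and 0.97 in CTX against UT and 1.00 and 0.87 in CAU against CTX. In most oviduct and adipocyte markers a 2-fold change could therefore not be seen. In CTX against UT each of 8 surface epithelium markers (median -1.29, 1 fell), 7 oviduct epithelium markers (median -1.40, none passed), 7 adipocyte markers (median -1.54, none passed) and 8 macrophage markers (median -1.03, 5 fell) was negative, where 55.8% of all genes were negative and 0.82% fell. In CAU against CTX the 8 surface epithelium markers (median 0.43) and 7 oviduct markers (median 1.32) were positive and none passed, 7 of 8 macrophage markers were positive (median 0.41, 2 rose), and the 7 adipocyte markers were negative (median -0.15). In that comparison 52.3% of all genes were positive, 47.7% were negative and 0.312% rose. The 10 fibroblast and stroma markers had medians of -0.12 for CTX over UT and 0.02 for CAU over CTX, and none passed. The 8 endothelial markers had -0.06 and -0.12, and the 8 smooth muscle markers -0.02 and 0.19, in that order, and none passed. In CTX against UT, 8 of the fibroblast, 6 of the endothelial and 6 of the smooth muscle markers were negative. In CAU against CTX, 6 of the fibroblast, 1 of the endothelial and 8 of the smooth muscle markers were positive. The 8 granulosa markers were positive in CTX against UT (median 0.48, 1 rose), where 44.2% of all genes were positive and 0.472% rose. They had a median of -0.13 in CAU against CTX, where 1 fell against 0.13% of all genes, and the 7 theca markers had medians of 0.19 and 0.09 with none passed. The table holds no levels, so the amount of each cell type per sample is unknown, and the part of these cell types in the values of Col9a2 and Col15a1 was not tested.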

How the data were processed

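Ovarian RNA-seq of 9 samples in 3 groups of 3 was used through 1 table of the authors' own comparisons. Per the submitters' processing notes, the build GRCm38.p6 and the tools DESeq2 1.44.0, RSEM 1.3.1, Bowtie2 and HISAT2 were named; the sources used here give no roles, filters, strand setting or covariates. The authors deposited DESeq2 p-values and q-values beside a log2 fold change for each gene and pair of groups, per the file headers. The q-value is called adjusted p. A recomputed Benjamini-Hochberg adjustment differed from it by at most 7.74e-05. Between 215 and 272 genes were blank in a comparison.

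Each column was read with the group its header names last as numerator. CTX over UT plus CAU over CTX equalled CAU over UT within 0.01 of a constant in 44 of 44 chains. The implied SE is the absolute log2 fold change over the absolute z of its p, with a normal distribution for 95% intervals. Depth is unknown, so no interval from counts is given.

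The members, lists and tests were chosen with earlier results of these data known. Each chain could be named; called chains, those of types I, III, IV (a1, a2), VI (a1 to a3), XV and XVIII and the most and least precise chains have values in each comparison, and each partner list gives its called or most precise member. Others named were chosen after their values were seen. Sequences are from RefSeq. The steps that turn p into an SE and that adjust p were tested on simulated normal values with the implied SEs. The sequence, neighbour and list steps were not simulated. Simulated z values of unchanged genes had a spread of 1, against 0.841 in CAU against CTX and 0.711 in CAU against UT. The simulation therefore does not show that the intervals hold at those spreads. The work used scipy 1.17.1, pandas 2.3.3, numpy 2.4.6, matplotlib 3.10.9 and Python 3.11.15.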

Additional observations from a re-analysis of the deposited data

How the results depend on the processing

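In CTX against UT the 2 called chains became 1 (Col9a2) at an adjusted p under 0.01 and 0 with a minimum of 2-fold, since Col9a2 was 1.93-fold lower. In CAU against CTX the 1 called chain became 2 (Col9a2 and Col15a1) with z values scaled to a spread of 1, their own spread being 0.841. In CAU against UT, where the spread was 0.711, the 0 called chains became 1 (Col28a1) with that scaling. The other alternatives, an adjusted p under 0.10, the median of all genes set to 0 and an SE of at most 1, gave the same counts of called chains in each comparison, although the median set to 0 turned the calls over all genes in CTX against UT to 156 higher and 134 lower, against 91 and 158 without it, and Col9a2 and Col15a1 kept their direction where they passed. Over all genes, the scaling moved the called genes to 237 in CAU against CTX, against 85 without it, and to 255 in CAU against UT, against 10 without it. A minimum of 2-fold left 75, 55 and 3 genes in CTX against UT, CAU against CTX and CAU against UT, of 249, 85 and 10, and an adjusted p under 0.01 left 117 and 43 in CTX against UT and CAU against CTX, while one under 0.10 gave 415 in CTX against UT. No paired analysis was possible because the table holds no values per library; for that reason the replicate block and leaving out each replicate in turn were not run. Precision limits what Col2a1, Col9a1 and Col10a1 can show, with SEs above 1, and this does not hold for each chain known from cartilage.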
